A study of Equus caballus with 8 samples.

Results

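The complement genes described here are the recognition subunits of the C1 complex (C1QA, C1QB and C1QC), its proteases (C1R and C1S), their inhibitor (SERPING1, the C1 inhibitor), and the convertase proteases C2 and CFB. They were chosen by name, and each symbol was matched to a horse NCBI Gene ID. Of 9 genes listed, 8 were found among the 24942 genes of the count table. C3, the central component, had no match by symbol and is not reported. The 8 were also among the 15342 genes abundant enough to be tested.

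Complement is a cascade of plasma and tissue proteins that marks particles for uptake and can perforate membranes. In its classical pathway the C1q protein, built of A, B and C chains, binds a target and activates the proteases C1r and then C1s, which cleave C4 and C2, while the C1 inhibitor traps C1r and C1s and also restrains proteases of the contact and lectin pathways. Factor B takes the part of C2 in the alternative pathway. The liver makes most plasma complement, macrophages and dendritic cells are a main source of C1q, and fibroblasts and endothelium can make C1r, C1s and C1 inhibitor.

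Messenger RNA was sequenced from transcervical endometrial biopsies of 4 normally cycling Bavarian Warmblood mares, for which the labels state no age. Every mare was sampled in both states, pregnant and cyclic, each time on Day 12 and in random order, so the 8 libraries are paired by mare. Per the labels' protocol, which does not separate the states, 1500 IU of human chorionic gonadotropin was given to induce ovulation and the uterus was flushed before the biopsy. Pregnancy was established by ultrasound detection of an embryonic vesicle, and the labels' protocol describes insemination with semen of a single stallion for all mares without setting the cyclic samples apart.

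Libraries held 9.81 to 16.7 M counts, the shallowest being the pregnant library of mare 1. A count of 0 in a library allows up to 3 counts, which is 0.18 to 0.306 CPM (counts scaled to library size), covering counting error only. This bound uses raw library totals, without the scaling factor that the other CPM values carry. Epithelial, stromal and endothelial markers were all present. The 8 epithelial markers matched summed to 1647 to 2237 CPM per library, and EPCAM, an epithelial adhesion protein, averaged 538 CPM in cyclic and 508 CPM in pregnant libraries. The 6 hepatocyte genes summed to 10.2 to 28.7 CPM in the cycle and 8.65 to 11.6 CPM in pregnancy. Of these, FGA and TTR had no read in any library, ALB averaged 4.16 and 5.57 CPM, and APOA1 averaged 12.8 and 3.67 CPM (adjusted p = 0.0793). A biopsy is a mixture of cell types, so in every comparison more cells of a type and more RNA per cell cannot be told apart.

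The comparison of pregnancy with the cycle asked which complement transcripts differ when a conceptus is present. SERPING1, C1R and C1S rose, each in 4 of 4 mares, and no member fell. The other 5 members (C1QA, C1QB, C1QC, C2 and CFB) did not pass the test, with fitted folds from 1.16 to 1.48. A change was called at a Benjamini-Hochberg adjusted p below 0.05 in edgeR's quasi-likelihood test with the mare as a block. Of all genes tested, 16.7% were called, 8.53% higher and 8.19% lower in pregnancy, against 3 of 8 members called. The share of all genes was 2.54% in the fit without the mare block and 8.23% without mare 1, with 3 members called in both. With library totals in place of the TMM scaling (edgeR's trimmed mean of M values) the higher share of all calls was 62.1% in place of 51.0%, and the same number of members, 3, was called. The median log2 fold change was 0.42 over the 8 members and 0.00 over all tested genes.

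SERPING1 (Gene ID 100066476) had 67.9, 54.2, 60.6 and 53.2 CPM in the cyclic libraries of mares 1 to 4, and 138, 101, 142 and 106 CPM in their pregnant libraries. The lowest pregnant value lay well above the highest cyclic value, and within each mare the level was 1.87 to 2.34 times as high in pregnancy. The log2 fold change was 1.04 ± 0.07 (SE; adjusted p = 1.37e-04). In the pregnant state mares 1 and 3 were high and mares 2 and 4 low, a split that was smaller in the cycle. Of all tested genes, 2.08% had a larger log2 fold change than SERPING1.

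C1R (100060297), the protease that is activated first, had 131, 117, 116 and 111 CPM in the cycle and 236, 185, 198 and 172 CPM in pregnancy (log2 fold change 0.73 ± 0.07, adjusted p = 4.52e-04). C1S (100060261), which C1r activates, had 119, 134, 108 and 120 CPM in the cycle and 208, 213, 171 and 161 CPM in pregnancy (0.64 ± 0.08, adjusted p = 0.00107). The groups did not overlap for either protease, as for SERPING1, so 3 of 8 members were higher in pregnancy without overlap, beside 6% of all tested genes. Mare 1 had the largest rise of both proteases, at 1.80-fold for C1R and 1.75-fold for C1S, and mare 4 the smallest, at 1.55-fold and 1.34-fold. The 95% intervals of the fold were 1.83 to 2.30 for SERPING1, 1.49 to 1.85 for C1R and 1.38 to 1.76 for C1S. In the RefSeq gene table of a thoroughbred telomere-to-telomere assembly C1S, C1R and C1RL are neighbours in this order.

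**Figure D1:**
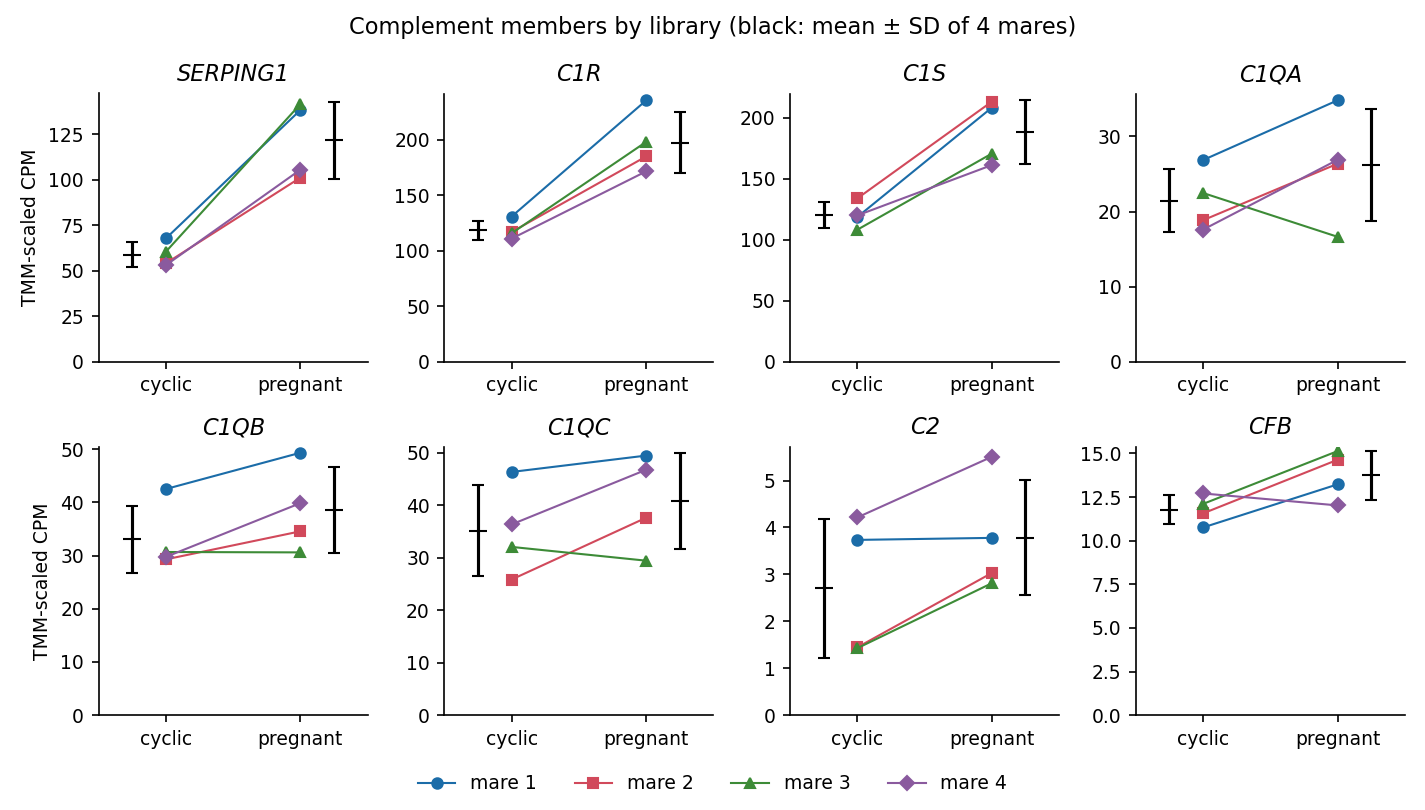
TMM-scaled CPM (y axis, from 0) of the 8 complement members in the cyclic and pregnant library of each mare, with lines joining the libraries of a mare and black bars giving mean ± SD of 4 mares. SERPING1, C1R and C1S are higher in every pregnant library than in any cyclic library, while the groups overlap for the C1q chains, C2 and CFB.

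The inhibitor gained reads relative to its target proteases. Counts of SERPING1 divided by those of C1R plus C1S within a library, a ratio on which library scaling has no bearing, were 0.272, 0.216, 0.270 and 0.230 in the cycle and 0.312, 0.254, 0.384 and 0.317 in pregnancy. The ratio was higher in pregnancy in 4 of 4 mares, by 1.15 to 1.42 times, with a mean log2 change of 0.35 ± 0.16 (SD, n = 4), although the 2 ranges overlap. C1R over C1S was 0.993 ± 0.111 in the cycle and 1.06 ± 0.132 in pregnancy (SD, n = 4) and was higher in 3 of 4 mares. Within a mare it changed 0.993 to 1.15-fold. The mean log2 change was 0.09 ± 0.09 (SD, n = 4), no larger than its spread. These ratios compare reads, not molecules, since transcript lengths were not used, and no test was run on them.

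**Figure D2:**
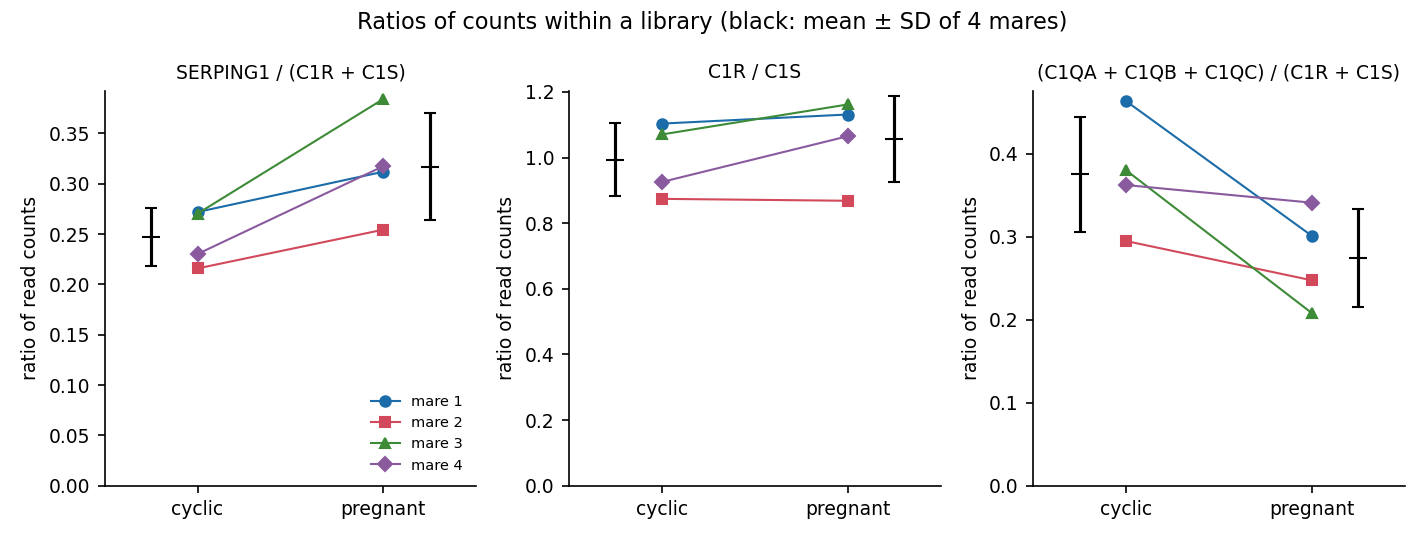
Ratios of read counts (y axes, from 0) within each library: SERPING1 over C1R plus C1S, C1R over C1S, and the 3 C1q chains together over C1R plus C1S, with lines joining the libraries of a mare and black bars giving mean ± SD of 4 mares. The first ratio is higher and the last lower in pregnancy in each of the 4 mares, and C1R over C1S stays between 0.868 and 1.16.

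None of the C1q chains passed the test. C1QA (100058097) had 26.9, 18.9, 22.5 and 17.6 CPM in the cycle and 34.8, 26.4, 16.6 and 26.9 CPM in pregnancy (log2 fold change 0.26 ± 0.17, adjusted p = 0.340). C1QB (100071667) had 42.5, 29.3, 30.7 and 29.7 CPM in the cycle and 49.3, 34.6, 30.6 and 39.8 CPM in pregnancy (0.22 ± 0.09, adjusted p = 0.117). C1QC (100058056) had 46.3, 25.8, 32.0 and 36.3 CPM in the cycle and 49.4, 37.6, 29.4 and 46.7 CPM in pregnancy (0.22 ± 0.11, adjusted p = 0.206). The groups overlapped for all 3 chains. Mare 1 was the highest in both states for each, and in mare 3 the fold was below 1 for each chain, at 0.741 for C1QA, 0.998 for C1QB and 0.918 for C1QC. The 95% intervals of the fold were 0.913 to 1.58 for C1QA, 1.02 to 1.33 for C1QB and 0.983 to 1.38 for C1QC, so a moderate rise is within what these data allow. These intervals are per gene and, unlike the adjusted p, take no account of the number of genes tested. Without mare 3 C1QA passed (log2 fold change 0.48, adjusted p = 0.0193). With all mares the adjusted p of C1QB and C1QC was 0.565 and 0.656 in the fit without the mare block.

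Averaged over mares, the 3 chains kept nearly the same proportions. C1QA made up 24.0% ± 2.40 of the C1q reads in the cycle and 24.6% ± 2.31 in pregnancy, C1QB 36.98% ± 1.81 and 36.8% ± 2.27, and C1QC 39.0% ± 3.61 and 38.7% ± 1.77 (SD, n = 4). Within a mare the share changed 0.823 to 1.13-fold for C1QA, 0.886 to 1.11-fold for C1QB and 0.924 to 1.09-fold for C1QC. After subtraction of the state means, the log2 CPM deviations of the 8 libraries correlated with r of 0.89 for C1QA with C1QB, 0.88 for C1QB with C1QC and 0.80 for C1QA with C1QC, and with r of -0.16 for SERPING1 with C1S, 0.41 for C1R with C1S and 0.79 for SERPING1 with C1R. Without the subtraction, r over the 8 libraries was 0.83 for SERPING1 with C1S, 0.91 for C1R with C1S and 0.98 for SERPING1 with C1R. The 4 within-mare log2 ratios gave r of 0.11, 0.83 and 0.52 for these pairs. For the C1q pairs, in the order above, r was 0.91, 0.90 and 0.82 over libraries and 0.93, 0.73 and 0.83 over ratios. The libraries of a mare come from the same animal and are not independent, so these are descriptions. The C1q genes are consecutive in the RefSeq gene table, in the order C1QB, C1QC, C1QA. Summed over the chains, C1q reads per C1R plus C1S read were 0.463, 0.295, 0.380 and 0.362 in the cycle and 0.301, 0.247, 0.208 and 0.341 in pregnancy, lower in 4 of 4 mares.

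C2 (100059162), the protease that joins C4b in the classical convertase, rested on 23 to 93 counts per library. It had 3.73, 1.45, 1.43 and 4.21 CPM in the cycle and 3.78, 3.03, 2.81 and 5.51 CPM in pregnancy (log2 fold change 0.57 ± 0.22, adjusted p = 0.114). C2 was higher in pregnancy in 4 of 4 mares, by 1.01 times in mare 1, and mares 1 and 4 were high in the cycle. Of the 8 members, 4 (SERPING1, C1R, C1S and C2) were higher in 4 of 4 mares, beside 19.2% of all tested genes. CFB (100051124), the protease of the alternative convertase, had 10.8, 11.6, 12.1 and 12.7 CPM in the cycle and 13.2, 14.6, 15.1 and 12.0 CPM in pregnancy (0.22 ± 0.11, adjusted p = 0.214). CFB was higher in mares 1 to 3 and lower in mare 4, and its mare 4 values were the highest of the cycle and the lowest of pregnancy. C2 and CFB are direct neighbours without overlap, and CFB overlaps the next gene, NELFE, in the RefSeq gene table. Reads at these borders may be divided between the genes, so both values carry that uncertainty. The libraries do not mark the strand, and the orientation of these genes was not examined.

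The 3 mare terms of the model were also tested jointly, which asks whether the animals differ. This test passed for C1QB (adjusted p = 0.0297), C1QC (0.0407), SERPING1 (0.0419) and C2 (0.0438), which is 4 of 8 members beside 15.9% of all tested genes. Without mare 1, 0 members passed this test, and without mare 2 or mare 4, 2 did. For SERPING1 the state, with 1 degree of freedom, held 88.7% of the variation in log2 CPM (as sums of squares), and the mare, with 3, held 10.1%. For C1QB the mare held 74.6% and the state 17.2%, and for C2 the mare held 68.3%. The medians over all tested genes were 54.8% for the mare and 15.97% for the state.

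Other genes of the complement system came from a list of 38, of which 31 matched a Gene ID and 24 were tested. Of these 24, 7 rose (CD93, C4BPA, COLEC12, MASP1, C7, C1RL and CLU) and 0 fell, beside 8.53% higher and 8.19% lower of all tested genes. The median log2 fold change of the 24 was 0.23, against 0.00 over all tested genes. Of the 24, 9 were higher in 4 of 4 mares, beside 19.2% of all tested genes, and a test with the mare as a block favours such agreement among called genes. In the fit without the mare block 4 of the 24 rose, beside 2.54% of all genes called in either direction, and the adjusted p was 0.0537 for COLEC12, 0.0572 for C1RL and 0.0868 for C7. C5, C8B, C9, MBL2, COLEC10, COLEC11 and VTN were too low to test, C8B and MBL2 with no read in any library.

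Among the risers, MASP1, a protease of the lectin pathway that the C1 inhibitor also traps, had 2.13, 2.39, 0.993 and 1.12 CPM in the cycle and 7.06, 4.58, 5.17 and 3.61 CPM in pregnancy (log2 fold change 1.65 ± 0.24, adjusted p = 0.00242). MASP1 rested on 16 to 92 counts per library. C1RL, a C1r-like protease, rose from 16.5 ± 1.89 to 24.1 ± 2.87 CPM (SD, n = 4), and COLEC12, a collectin scavenger receptor, from 29.6 ± 6.39 to 53.9 ± 12.4 CPM. C7, a component of the membrane attack complex, had 8.82, 4.78, 12.0 and 8.06 CPM in the cycle and 21.3, 15.6, 24.1 and 11.4 CPM in pregnancy. The pregnant value of mare 4 was below the cyclic value of mare 3, so the C7 ranges overlap. C6, which acts beside C7, had a log2 fold change of -0.32 ± 0.16 and did not pass (adjusted p = 0.238). C8A, a chain of the membrane attack complex, had a log2 fold change of -0.70 ± 0.34 and did not pass (adjusted p = 0.216). C8A was higher in pregnancy in 1 of 4 mares and rested on 2 to 228 counts per library.

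Regulators were divided. CLU, clusterin, which keeps the membrane attack complex out of membranes, had 342, 295, 318 and 485 CPM in the cycle and 801, 715, 817 and 613 CPM in pregnancy (log2 fold change 1.05 ± 0.18, adjusted p = 0.00991). The rise of CLU was 2.34 to 2.57-fold in mares 1 to 3 and 1.26-fold in mare 4, and its call was lost without mare 1 (adjusted p = 0.0565) or mare 2 (0.0750). C4BPA, a chain of the C4b-binding protein, rose from 11.2 ± 0.995 to 23.5 ± 5.13 CPM (adjusted p = 0.00190). Its partner chain C4BPB had 4.41 ± 0.444 and 5.70 ± 1.79 CPM (adjusted p = 0.239), and the spans of these 2 genes overlap in the RefSeq gene table, so their counts are uncertain. CFI, the protease that inactivates C3b and C4b, had 295 ± 35.8 and 341 ± 8.29 CPM (adjusted p = 0.142), with a 95% interval of the fold from 1.01 to 1.34. CD46, a membrane cofactor of CFI, had 206 ± 24.1 and 223 ± 48.8 CPM (adjusted p = 0.475).

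Of the genes tied to C1q at the cell surface, CD93, a receptor of endothelium and myeloid cells once described as a C1q receptor, rose from 82.9 ± 10.3 to 147 ± 21.2 CPM (log2 fold change 0.82 ± 0.08, adjusted p = 4.52e-04). C1QBP, a C1q-binding protein found mostly in mitochondria, had 58.3 ± 7.40 and 63.6 ± 7.23 CPM (adjusted p = 0.279). None of the 7 tested receptors of C3 and C5 fragments passed. ITGB2, the shared beta chain of complement receptors 3 and 4, had 62.2 ± 13.3 and 74.2 ± 26.8 CPM (adjusted p = 0.202), and the alpha chain ITGAM had a log2 fold change of -0.27 ± 0.14 (adjusted p = 0.215).

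**Figure D3:**
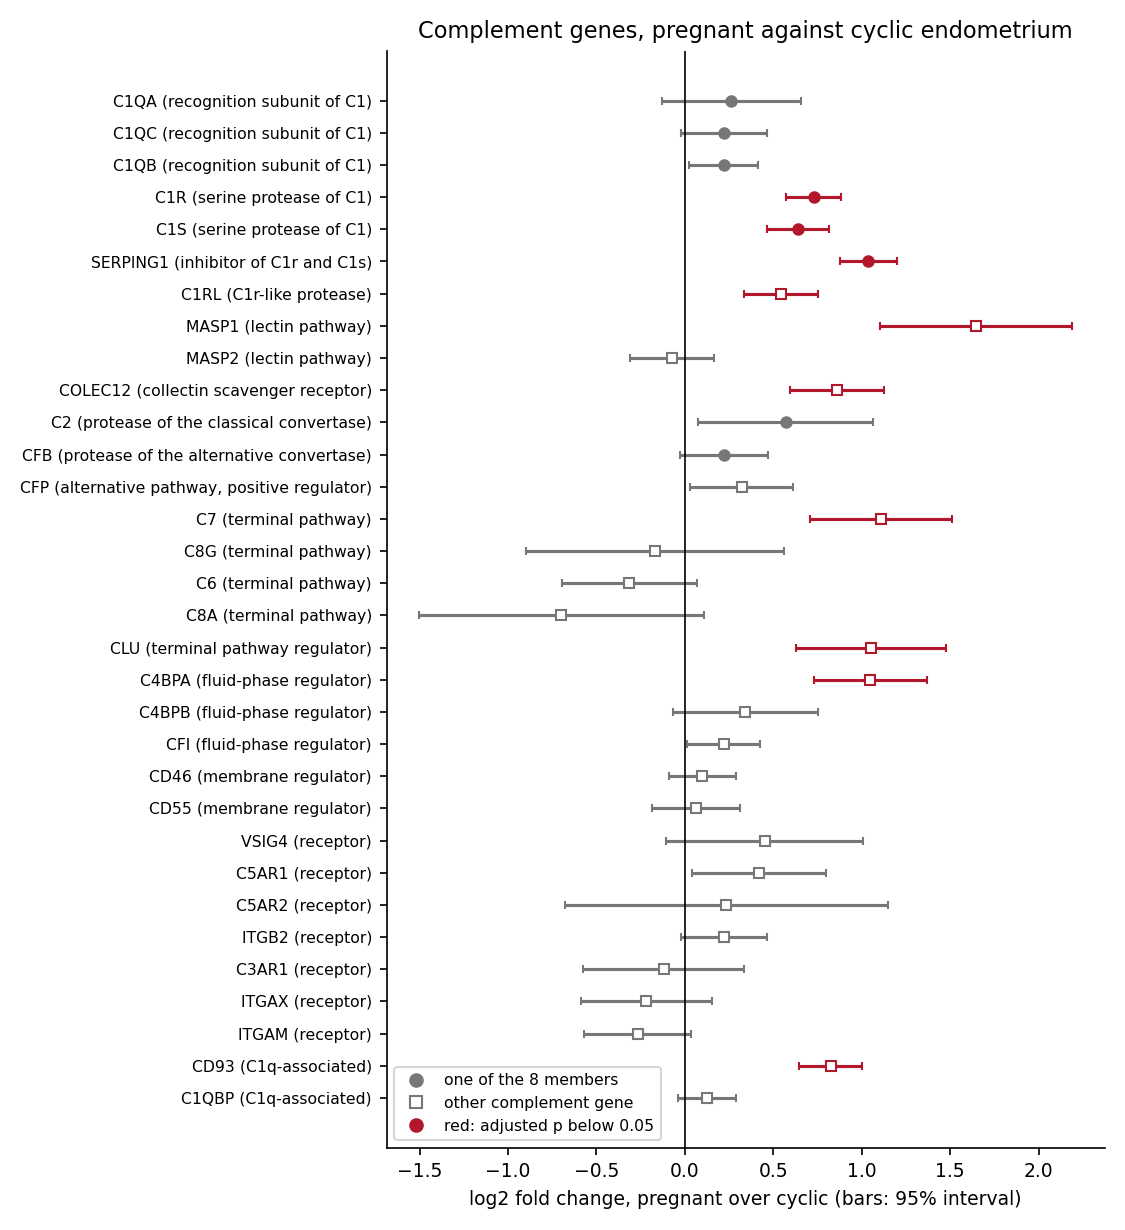
Log2 fold change of pregnancy over the cycle (x axis) with 95% intervals for the 8 members (circles) and 24 other tested complement genes (squares), ordered by role, with genes at an adjusted p below 0.05 in red. C1R, C1S and SERPING1 and 7 other genes are red, all to the right of 0, and the 3 C1q chains lie between 0.22 and 0.26.

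Markers of the cell types in a biopsy moved beside these genes. Of all tested genes 8.53% were called higher and 8.19% lower in pregnancy, the shares to set beside each list. All 8 endothelial markers rose. Their summed level was 485 to 697 CPM in the cycle and 866 to 1441 CPM in pregnancy, 1.36 to 2.07 times as high within a mare. Of 9 stromal fibroblast markers 5 rose (DCN, VIM, DPT, MFAP4 and PDGFRB) and 0 fell. The collagens COL1A1 and COL1A2, with log2 fold changes of -0.15 and -0.17, did not pass. Neither did LUM (0.38, adjusted p = 0.0835) and PDGFRA (0.21, adjusted p = 0.259). The stromal sum was 3273 to 4819 CPM in the cycle and 4066 to 4621 CPM in pregnancy. Most of it came from these collagens, which averaged 1484 and 1558 CPM in the cycle and 1283 and 1351 CPM in pregnancy. Of 8 epithelial markers 3 fell and 0 rose, and their sum was 1830 to 2237 CPM in the cycle and 1647 to 1842 CPM in pregnancy. Of 9 interferon-stimulated genes 6 rose, with a sum of 299.7 to 363 CPM in the cycle and 359.6 to 510 CPM in pregnancy. No marker of these 4 lists was at 0 in all libraries. Their part in the rises of SERPING1, C1R, C1S and CD93 was not tested.

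Beside the C1q chains, 1 of 13 tested macrophage and dendritic cell markers rose, against 8.53% of all tested genes. This was CD14, from 29.4 to 43.4 CPM. The list summed to 138 to 194 CPM in the cycle and 186 to 192 CPM in pregnancy, with no marker at 0 in all libraries. CSF1R, the receptor that sustains macrophages, had 58.6 and 57.5 CPM. Mare 1 had the highest sum of these markers and of the C1q chains in both states. In pregnancy the marker sums were close, at 192, 186, 189 and 188 CPM in mares 1 to 4. The C1q sums there were 134, 98.5, 76.7 and 113 CPM, lowest in mare 3. The C1q sum changed 1.15, 1.33, 0.900 and 1.36-fold in mares 1 to 4, and the sum of macrophage and dendritic markers 0.990, 1.35, 1.06 and 1.10-fold. The part of cell numbers in the C1q levels was not tested. Of 9 T and NK markers 3 rose, and their sum was 51.6 to 72.3 CPM in the cycle and 64.4 to 97.9 CPM in pregnancy. Blood markers summed to 6.35 to 12.7 CPM in the cycle and 9.25 to 18.6 CPM in pregnancy, with ALAS2 at 0. Within a mare this sum was 1.35 to 1.65 times as high in pregnancy. Of the 7 blood markers matched, 2 were abundant enough to test and 1 rose. This was GYPC, from 4.95 to 8.61 CPM (adjusted p = 0.00494).

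**Figure D4:**
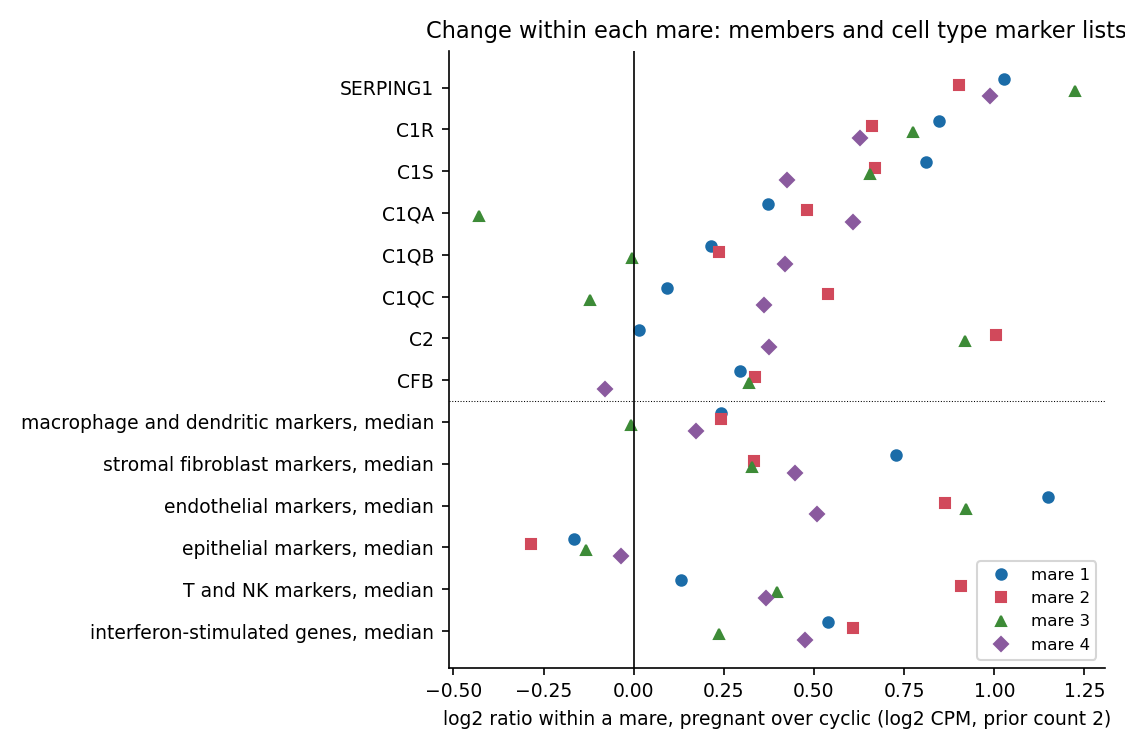
Log2 ratio of the pregnant to the cyclic library of each mare (x axis) for the 8 members and, below the dotted line, the median over each marker list. All 4 mares lie right of 0 for SERPING1, C1R, C1S and the endothelial median, and mare 3 lies left of 0 for each C1q chain.

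Likeness of pattern was measured by Pearson's r of log2 CPM over the 8 libraries, among 12718 named genes with a mean of at least 1 CPM. SERPING1 was most like LCN2, a siderophore-binding lipocalin (r = 0.987), AFAP1L1, an actin-associated protein (0.985), and TSPAN7, a tetraspanin (0.985). LCN2 rose from 39.1 ± 7.54 to 146 ± 62.0 CPM, a larger fold than that of SERPING1, and TSPAN7 from 20.6 ± 1.84 to 37.6 ± 5.74 CPM. C1QB was most like WIPI2, an autophagy protein (r = 0.986), GFI1, a transcription factor of blood cells (0.957), and MYO1E, a class I myosin (0.944). Of these, MYO1E rose (log2 fold change 0.26 ± 0.07, adjusted p = 0.0270), and WIPI2 and GFI1 did not pass (adjusted p = 0.153 and 0.607). With 8 libraries from 4 mares and so many genes, high r values arise easily, and these are descriptions.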

How the data were processed

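The authors deposited raw read counts per NCBI Gene ID for 8 libraries. The submitters' processing notes name the trimmer Trimmomatic 0.32.2 and the aligner HISAT2 2.0.3. For the genome build, the annotation and the counter, the entry is: not given in the sources used here. Per the labels' protocols the libraries were poly(A) libraries, and the kit described does not mark the strand. A second deposited table of scaled values of the same libraries was not used.

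Names came from the RefSeq gene table of a thoroughbred telomere-to-telomere assembly, which matched 21420 of 24942 IDs (85.9%). No coordinates or sequences are given, because the build of the counts is not known and no sequence table was used here.

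Counts were tested in R 4.3.3 with edgeR 4.0.16: filterByExpr with a minimum count of 10 (15342 genes), TMM scaling, the robust quasi-likelihood F-test with state and mare, and Benjamini-Hochberg adjustment over all genes tested. The mare is a block because the series' design text pairs the biopsies. Deviations of the libraries from their state means correlated across genes within a mare (r of 0.54, 0.38, 0.48 and 0.47, against at most -0.02 between mares). Because the deviations within a state cancel, positive values within a mare push those between mares to be negative. The contrast is therefore partly built in. The SE is the log2 fold change divided by the square root of F, and intervals use the test's degrees of freedom. All intervals are per gene, without adjustment for the number of genes tested. CPM are TMM-scaled, as mean ± SD over 4 mares. Within-mare log2 ratios use log2 CPM with a prior count of 2. No 2 libraries of a state agreed within sampling noise (lowest chi-square per degree of freedom 24.6). DESeq2 1.42.0 and limma 3.58.1 (voom) served as alternatives, beside other scalings, filters, no mare block and each mare left out. The test was checked on simulated data. There the share of false calls was above the level that the threshold aims for, and many small changes were missed. Far fewer genes were changed in the simulation than were called here. The share of false calls depends on that number, so it need not hold for these calls.

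The members, the gene lists and the rule for the genes named (every member found, up to 8 called complement genes with the smallest p, the 4 uncalled ones with the highest CPM, and the 3 genes most like SERPING1 and C1QB) were chosen with earlier results of these data known. C6, C8A, C4BPB, ITGAM, MASP2 and the marker genes named in the text fall outside that rule and were named after their values were seen. The rule also asked for the genes most like C3, and for protein and promoter sequences, which are not given. An item of the list of other complement genes is not reported here and is left out of that list's counts.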

Additional observations from a re-analysis of the deposited data

Results flagged for a closer look

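The cyclic library of mare 1 stood apart from the other 3 cyclic libraries for C1QB, at 42.5 CPM against 29.3 to 30.7 CPM, its gap to the nearest being 0.895 of the range. The pregnant library of mare 1 was also the highest of its state for C1QB, at 49.3 CPM. With 4 libraries in a group, chance marks about 1 group in 20 in this way, and 16 groups (8 genes in 2 states) were examined.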

How the results depend on the processing

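Over 11 alternatives SERPING1, C1R and C1S kept their direction and their call (adjusted p up to 0.0167, 0.0216 and 0.0261, each in the fit without the mare block), C1QB, C1QC, C2 and CFB passed in none, and C1QA passed in 1. The number of members called was 3 in every alternative but the one without mare 3, where it was 4 (range 3 to 4 over mares left out). Without the mare block as replicate block 389 of all genes were called in place of 2565, and 4 other complement genes in place of 7; COLEC12, C1RL and C7 lost their calls there. Leaving out a mare gave 1266 (mare 1) to 2057 calls over all genes and 6 to 8 calls among the other complement genes. The added call, without mare 4, was a fall, that of C8A, a chain of the membrane attack complex (adjusted p = 0.00769). In mare 3 C8A had only 8 counts in the cycle and 2 in pregnancy. CLU lost its call without mare 1 or 2. Members differing between mares numbered 4 in the main model and 0 (without mare 1) to 4 when a mare was left out, and 4 with library totals or DESeq2-style size factors. The ratio of SERPING1 to C1R plus C1S had a mean log2 change of 0.30 to 0.40 when a mare was left out. The depth of the pregnant library of mare 1 and the low counts of C2 and MASP1 limit what those values can show.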
